A study of Mus musculus with 6 samples.

Results

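The metabotropic glutamate receptor genes Grm5, Grm2, Grm3, Grm4, Grm7 and Grm8 were taken by symbol from the gene-level read counts of mouse brain, 6 genes of the 55604 identifiers in the tables. All 6 passed the filter on low counts and were tested among 11388 genes. The libraries came from total RNA of C57BL/6 mouse brain, 3 after intraperitoneal injection of 4-aminopyridine (4-AP), a blocker of voltage-gated potassium channels used here to induce status epilepticus, and 3 from untreated control mice (labelled NC). In both groups the RNA had been digested with RNase R, which degrades linear RNA and spares circles, so each count adds up circular RNA and surviving linear RNA of a gene and is not a measure of its messenger RNA alone. The labels give no age, sex, dose or time after injection, do not name the part of the brain, and do not say if samples are from separate animals, so the tests compare these samples and their spread may be technical. The series' design text calls the tissue paired, and no label says what same-numbered samples share.

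Metabotropic glutamate receptors are G protein-coupled receptors that sense synaptic glutamate and adjust transmission more slowly than the glutamate-gated ion channels. Group I receptors couple to Gq, phospholipase C and calcium release and sit mainly at the edge of the postsynaptic membrane, where Homer proteins bind them. Group II and group III receptors couple to Gi/o, lower cyclic AMP and, at many terminals, reduce transmitter release; group III receptors lie in or near the presynaptic active zone. Here group I is represented by Grm5, group II by Grm2 and Grm3, and group III by Grm4, Grm7 and Grm8.

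None of the 6 receptor genes passed the test between 4-AP and control brain, against a background of 0.843% of all tested genes at an adjusted p under 0.05 in either direction. The count was 0 by the quasi-likelihood test of edgeR, adjusted over all genes by Benjamini and Hochberg's method, 0 by DESeq2 and 0 by limma-voom. At an unadjusted p under 0.05 edgeR's test held 1 of them, Grm2, as it did for 13.9% of all genes. The group II genes Grm2 and Grm3 had the lowest fold changes of the 6, and the group III gene Grm8 the highest. The 4-AP and control libraries did not overlap for 1 of the 6 genes, Grm3, which was lower. Of all tested genes 18.8% had groups that did not overlap, 10.4% lower and 8.36% higher after 4-AP.

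**Figure D1:**
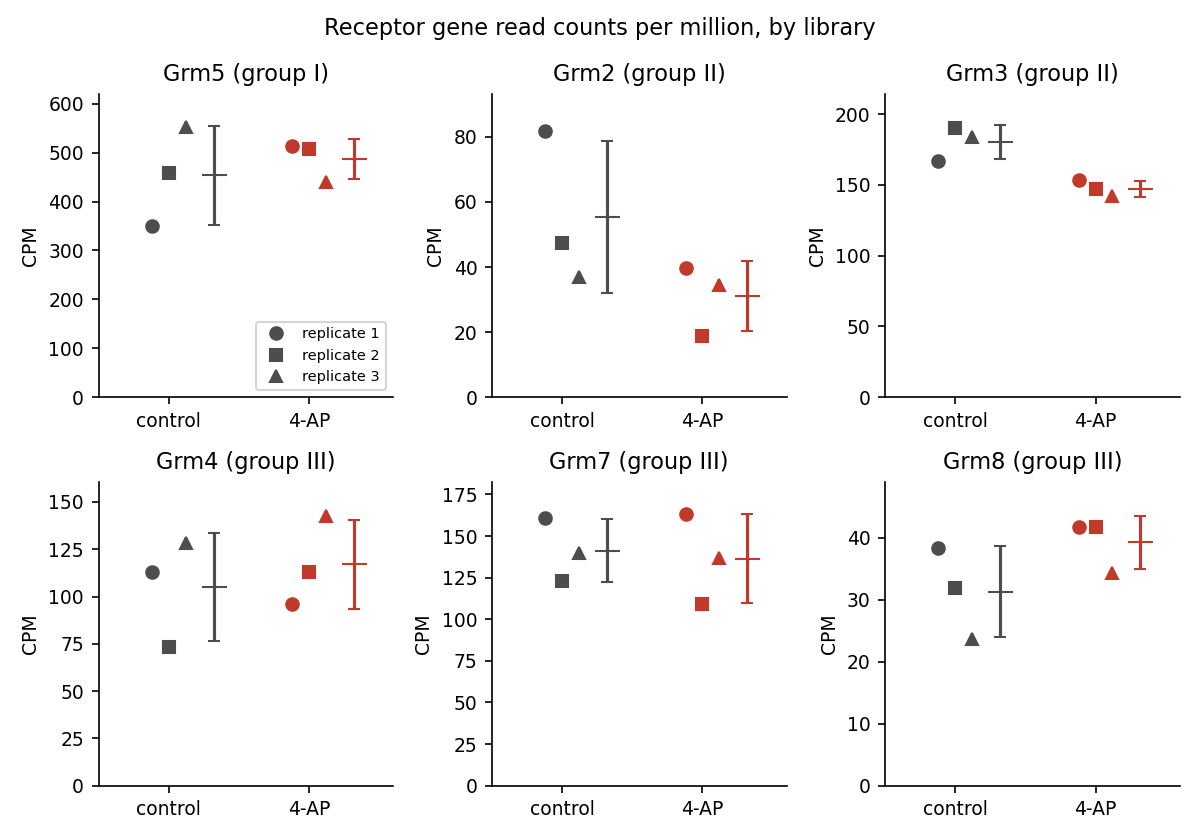
Scaled read counts (CPM, vertical axis, from 0) of each receptor gene in the 3 control (grey) and 3 4-AP (red) libraries, with marker shapes for the replicate number; bars beside the points are the mean ± SD. The groups are separate for Grm3 and overlap for the other 5 genes, and Grm2 is highest in control replicate 1.

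Read counts were scaled to CPM, counts per 1e+06 reads of the scaled library size. Total counts ran from 1507882 to 2721287 in the 4-AP libraries and from 2355610 to 3409055 in the controls. Lars2 was the gene with the most counts in every library, with 12.4% to 21.4% of them in the 4-AP libraries and 3.82% to 12.1% in the controls, without overlap. Leaving out all loci above 1% of a library changed no receptor's call. Neuronal and astrocyte markers were present in every library. The 10 pan-neuronal markers summed to between 3107 and 3537 CPM after 4-AP and between 3682 and 4090 CPM in controls, without overlap. Of the 10, 9 had a log2 fold change below 0 (median -0.28) and 3 were lower at an unadjusted p under 0.05. Among all tested genes, 51% lay below 0 and 13.9% had an unadjusted p under 0.05 in either direction. By edgeR's test 0 of the 10 were called. The 8 microglia markers summed to between 444 and 533 CPM after 4-AP and between 367 and 427 CPM in controls, also without overlap. Of 6 tested members, 3 were below 0, 2 were higher at an unadjusted p under 0.05 and 0 were called. Most of this sum was Cx3cr1, with a mean of 374 CPM after 4-AP and 252 CPM in controls. The next highest marker, Csf1r, was at 66.7 and 67.9 CPM, so the sum does not describe the list as a whole. Control replicate 1 stood apart from the other controls in its striatal and subcortical markers. The 9 striatal genes summed to 144 CPM there, against 832 and 1392 CPM in the other controls. In the 4-AP libraries they summed to 826 to 1209 CPM. Markers of cortical and hippocampal glutamatergic neurons summed to between 1552 and 2173 CPM after 4-AP and between 2804 and 2941 CPM in controls, and 12 of the 12 had a log2 fold change below 0. Subcortical neuron markers summed to between 138.9 and 250.7 CPM after 4-AP and between 30.9 and 133.6 CPM in controls. The highest control was control replicate 1, and the others were at 30.9 and 33.9 CPM. Of the 12 listed members, 8 were tested. Among these 8, 0 had a log2 fold change below 0 and 4 were called higher by edgeR's test. The 4 were Oxt, Avp, Trh and Gpr101. Oxt, Avp and Trh were low or absent in controls and passed the filter on low counts through the 4-AP libraries. Their direction is therefore tied to the filter. Of the untested members, Hcrt (3.65 against 0 CPM) and Pmch (4.92 against 0.105 CPM) were higher after 4-AP. Tcf7l2 (4.16 against 4.17 CPM) and Gbx2 (0.85 against 1.2 CPM) were not. Oxt had 0 counts in every control and 8 to 17 counts in the 4-AP libraries. In bulk tissue, fewer cells of a type and less RNA per cell cannot be told apart. A difference between libraries in the part of the brain taken, which the labels do not name, cannot be told apart from them either. Nor can the circular and the surviving linear RNA in each count be separated after the RNase R digestion. The part of these marker differences in the receptor results was not tested.

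Per kilobase of annotated exon, Grm3 and Grm5 had the highest values of the 6 genes. Since the RNA had been digested with RNase R, this order is one of surviving reads and does not rank the genes by messenger RNA. The unit here is CPM divided by the kilobases of all annotated exons of the gene (RPKM). In control brain Grm3 was at 59.2 ± 3.97 RPKM and Grm5 at 44.3 ± 9.83 (SD, n = 3), and their libraries did not overlap, the lowest Grm3 value being 54.7 and the highest Grm5 value 53.8. Grm7 followed at 24.0 ± 3.2, Grm4 at 17.5 ± 4.78, Grm2 at 11.3 ± 4.78 and Grm8 at 3.16 ± 0.744 RPKM. The neighbours Grm7 and Grm4, and Grm4 and Grm2, overlapped between libraries, whereas Grm2 and Grm8 did not. In 4-AP brain the order was the same: Grm3 at 48.3 ± 1.87, Grm5 at 47.5 ± 4.03, Grm7 at 23.2 ± 4.56, Grm4 at 19.6 ± 3.95, Grm2 at 6.34 ± 2.21 and Grm8 at 3.97 ± 0.432 RPKM. There Grm3 and Grm5 overlapped, as did Grm2 and Grm8. The order rests in part on the length used, since Grm3 has 1 annotated transcript of 3049 exonic bases and Grm5 has 7, with 10247 exonic bases in all. With each gene's longest transcript as its length, Grm5 came before Grm3 in 4-AP brain (60.5 against 48.3 RPKM) and Grm8 before Grm2 (8.19 against 6.58), while the order in control brain was unchanged. With that length Grm3 and Grm5 overlapped in control brain (59.2 ± 3.97 against 56.4 ± 12.5 RPKM), as did Grm2 and Grm8, so the separation of both neighbours there depended on the length used; Grm7 and Grm4 no longer overlapped.

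Group I was represented by Grm5, the receptor that binds Homer and drives phospholipase C signalling in forebrain neurons. The gene lies on chromosome 7 (87584168 to 88134907, plus strand, mm10) and had the most reads of the 6, between 601 and 1770 counts per library. Its level was 513, 508 and 439 CPM in 4-AP replicates 1 to 3 and 351, 459 and 552 CPM in control replicates 1 to 3. The controls enclosed the 4-AP libraries on both sides. The means were 487 ± 41.3 and 453.7 ± 100.7 CPM (SD, n = 3 each), and the log2 fold change was 0.10 with an SE of 0.16 (edgeR adjusted p = 0.847). The 95% interval of the fold, not adjusted for the number of genes, ran from 0.857 to 1.35. The lowest Grm5 value was that of control replicate 1, the library with the lowest striatal marker sum. The highest was that of control replicate 3, the library with the highest such sum. The libraries between did not all keep this order. In 4-AP replicate 1 the striatal sum was 826 CPM and Grm5 was at 513 CPM, against 866 and 439 CPM in 4-AP replicate 3. A link between Grm5 and these markers was not tested. Without control replicate 1 the sign of the Grm5 log2 fold change turned, to -0.042 (adjusted p = 0.961, edgeR's test).

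**Figure D2:**
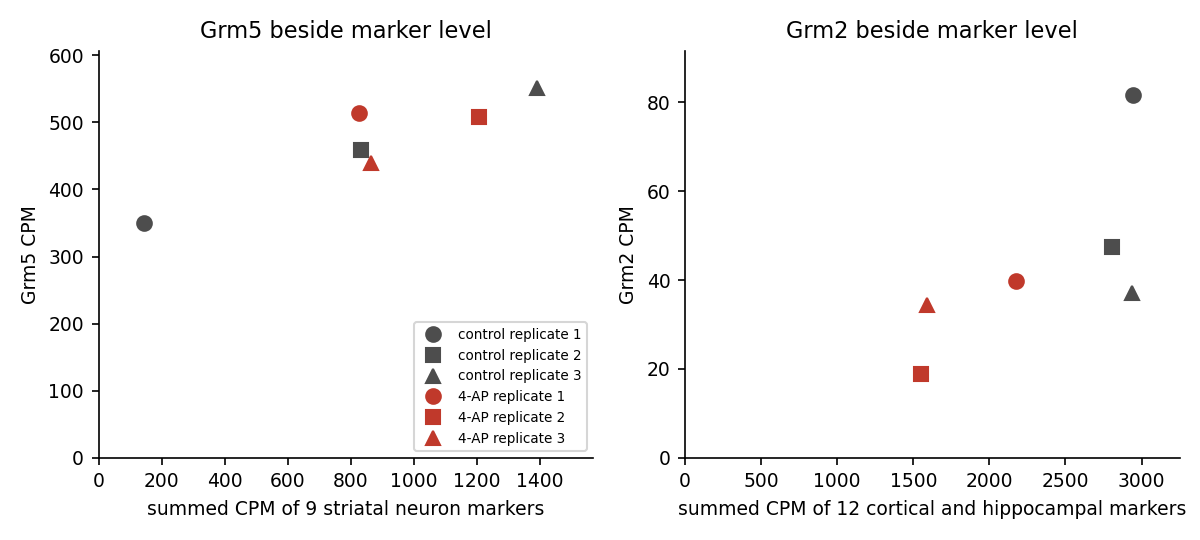
Left, Grm5 CPM against the summed CPM of 9 striatal neuron markers; right, Grm2 CPM against the summed CPM of 12 markers of cortical and hippocampal glutamatergic neurons, with 1 point per library and all axes from 0. Control replicate 1 has the lowest Grm5 (351 CPM) and striatal marker (144 CPM) values and the highest Grm2 (81.7 CPM) value. Links between the receptor genes and these markers were not tested.

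The group II genes had the lowest fold changes. Grm2 encodes a mainly presynaptic receptor of cortical and dentate neurons, and Grm3 a receptor found on both neurons and astrocytes. The RefSeq promoter windows (GRCm38.p6, the assembly of mm10) held 4 of the 6 receptor genes, Grm2, Grm3, Grm7 and Grm8, and not Grm5 and Grm4. The 250 bases before the start sites of the group II pair, at chr9:106656110-106656359 for Grm2 and chr5:9725353-9725602 for Grm3, both on the minus strand, are shown 5′ to 3′ because these were the members with the lowest fold changes. Capitals mark GC boxes (GGGCGG, searched on both strands, overlaps allowed), the binding motif of the Sp family of activators.
Grm2: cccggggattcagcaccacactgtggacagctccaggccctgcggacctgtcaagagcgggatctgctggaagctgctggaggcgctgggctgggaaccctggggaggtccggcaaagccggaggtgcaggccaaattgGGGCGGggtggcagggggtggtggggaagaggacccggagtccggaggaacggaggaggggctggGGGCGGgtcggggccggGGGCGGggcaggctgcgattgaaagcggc
Grm3: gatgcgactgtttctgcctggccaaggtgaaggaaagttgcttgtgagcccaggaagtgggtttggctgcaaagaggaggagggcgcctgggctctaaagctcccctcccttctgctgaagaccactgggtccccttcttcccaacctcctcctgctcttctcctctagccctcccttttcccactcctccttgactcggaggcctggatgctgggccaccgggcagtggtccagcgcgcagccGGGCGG
The Grm2 window held 3 GC boxes, beginning 111, 46 and 29 bases before the start site, and the Grm3 window 1, beginning 6 bases before it. At least 1 GC box was present in 32.7% of the 32851 promoter windows of the same length. Of 3 motifs of activity-regulated factors searched on both strands, the Egr core GTGGGCG (in 7.02% of all windows), the cyclic AMP response half-site TGACG (17.8%) and the AP-1 site TGANTCA (6.75%), the windows of this pair matched 0. Both annotated windows of Grm7, which overlap each other, held the same 1 GC box and 0 of these 3 motifs. Of the 3 annotated windows of Grm8, the first held 1 GC box and 1 AP-1 site, 244 bases before the start site, the second 1 cyclic AMP response half-site, 24 bases before it, and the third 0 of the 4 motifs. These matches describe the letters of these windows and are not shown to be binding sites.

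Grm2 lies on chromosome 9 (106643095 to 106656082, minus strand) and was counted at 61, 53 and 47 reads in 4-AP replicates 1 to 3 and 260, 183 and 83 reads in control replicates 1 to 3. Per scaled library size these were 39.8, 18.9 and 34.4 CPM after 4-AP and 81.7, 47.5 and 37.0 CPM in controls. The groups overlapped, since 4-AP replicate 1 was above control replicate 3, and the highest value belonged to control replicate 1. The means were 31.0 ± 10.8 and 55.4 ± 23.4 CPM (SD, n = 3 each). The log2 fold change was -0.89 (SE 0.32), with an unadjusted p of 0.0163 and an adjusted p of 0.222 (edgeR); 1.67% of tested genes had a lower log2 fold change. The unadjusted 95% interval of the fold ran from 0.333 to 0.875. Without control replicate 1 the log2 fold change was -0.50, and without 4-AP replicate 2 it was -0.56. Grm2 passed edgeR's test when counts were scaled by totals alone (-1.14, adjusted p = 0.036) and with no filter on low counts (-0.92, adjusted p = 0.00698). It also passed, narrowly, with the replicate number as a block (-0.86, adjusted p = 0.049), so in each of these 3 settings the count of called receptor genes was 1. The antisense gene Gm28111 covers 9.6% of its exonic bases and had at most 1 count in a library; without a stated strand setting, reads of the 2 genes cannot be told apart there.

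Grm3 lies on chromosome 5 (9485541 to 9725170, minus strand). It was at 153, 147 and 142 CPM in 4-AP replicates 1 to 3 and at 167, 190.4 and 184 CPM in control replicates 1 to 3. Every 4-AP library was below every control, and the spread within each group was the smallest of the 6 genes, with coefficients of variation of 3.87% after 4-AP and 6.72% in controls. The means were 147 ± 5.7 and 180.4 ± 12.1 CPM (SD, n = 3 each), and the log2 fold change of -0.29 (SE 0.14) had an adjusted p of 0.379 in the edgeR fit. The unadjusted 95% interval of the fold ran from 0.664 to 1.01. Among astrocyte markers, the summed level was also lower in each 4-AP library (4871 to 5193 CPM) than in each control (5329 to 5536 CPM). The glutamate transporter gene Slc1a2 was the marker that fell, from 1748 to 1132 CPM (adjusted p = 0.0328, edgeR's test). Without it the other 14 markers summed to between 3648 and 4055 CPM after 4-AP and between 3572 and 3754 CPM in controls, so that the ranges overlapped. Of the 15 astrocyte markers, 3 had a log2 fold change below 0, against 51% of all tested genes.

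Summed within groups, the group II pair was at 193, 166 and 176 CPM in 4-AP replicates 1 to 3 and at 249, 238 and 221 CPM in control replicates 1 to 3, with no overlap. Group I and group III sums overlapped. Group III was at 300.5, 264 and 314 CPM after 4-AP and 312, 228 and 292 CPM in controls. Of all counts of the 6 genes, group II made up 18.6% ± 0.814 after 4-AP and 24.6% ± 3.44 in controls, group I 50.8% ± 3.45 and 46.6% ± 7.13, and group III 30.6% ± 2.91 and 28.8% ± 4.92 (SD, n = 3 each). Within group II, Grm2 held 20.6%, 11.4% and 19.5% of the counts in 4-AP replicates 1 to 3 and 32.9%, 20% and 16.8% in control replicates 1 to 3, so this split overlapped between the groups. These sums and shares are descriptions and were not tested.

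**Figure D3:**
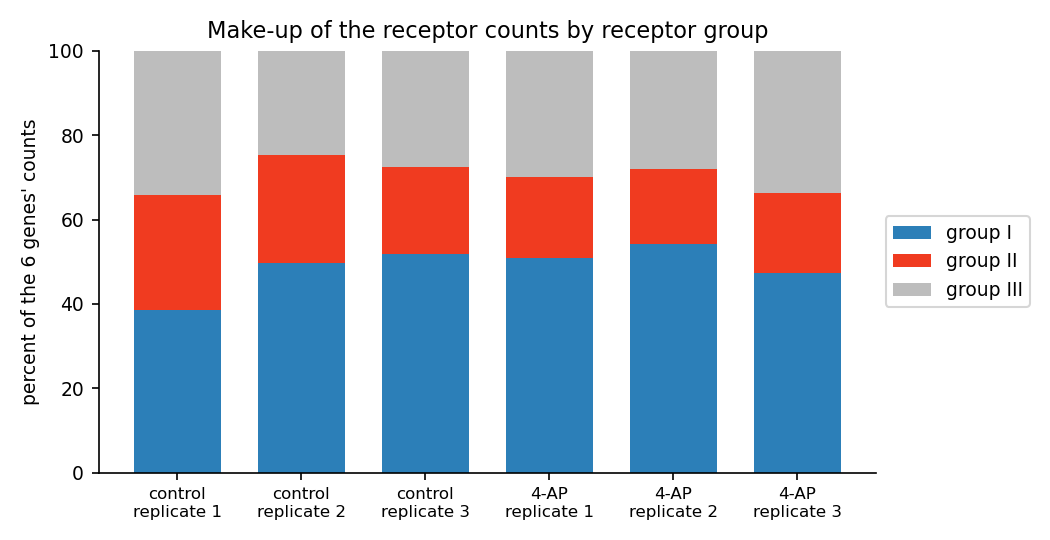
Share of the counts of the 6 receptor genes held by group I (Grm5), group II (Grm2 and Grm3) and group III (Grm4, Grm7 and Grm8) in each library, as stacked percentages. Group II takes 17.7% to 19.2% in the 4-AP libraries and 20.7% to 27.3% in the controls.

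Of the group III genes, Grm4 encodes a presynaptic receptor abundant on cerebellar granule cell terminals and present at lower levels in forebrain. It lies on chromosome 17 (27422387 to 27521403, minus strand). Its level was 95.8, 113 and 142 CPM in 4-AP replicates 1 to 3 and 113, 73.1 and 128 CPM in control replicates 1 to 3, and the groups overlapped. The log2 fold change was 0.16 (SE 0.20, edgeR adjusted p = 0.796), with an unadjusted 95% interval of the fold from 0.838 to 1.5. It turned to -0.028 without control replicate 2 and to -0.029 with scaling by total counts. The 10 cerebellar neuron markers summed to between 63.8 and 133.8 CPM. The granule cell marker Gabra6 had 0 counts in every library. As the counting settings are not given, this is not read as absence. The Purkinje cell marker Pcp2 had at most 3 counts in a library, and the granule cell gene Cbln3 at most 2. The 4 tested members had more reads. Their means after 4-AP and in controls were 31.1 and 24 CPM for Calb1, 26.97 and 21.05 for Zic1, 20.9 and 14.7 for Zic2, and 15.9 and 8.78 for Cbln1. The highest marker sum and the highest Grm4 value were both in 4-AP replicate 3. A link between Grm4 and these markers was not tested.

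Grm7, the group III receptor of the active zone with the lowest affinity for glutamate, lies on chromosome 6 (110645581 to 111567230, plus strand). It was at 163, 109 and 137 CPM in 4-AP replicates 1 to 3 and at 161, 123 and 140.1 CPM in control replicates 1 to 3. The ranges lay almost on top of each other, and the log2 fold change was -0.058 (SE 0.17, edgeR adjusted p = 0.930), with an unadjusted 95% interval of the fold from 0.752 to 1.23. Its sign turned without 4-AP replicate 2 (0.11) or control replicate 1 (0.056).

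Grm8, a high-affinity presynaptic group III receptor, lies on the same chromosome (27275119 to 28135178, minus strand). It had between 47 and 123 counts per library, or 41.7, 41.8 and 34.4 CPM in 4-AP replicates 1 to 3 and 38.4, 31.9 and 23.6 CPM in control replicates 1 to 3. The lowest 4-AP library was below control replicate 1, so the groups overlapped. Its log2 fold change of 0.32 (SE 0.22) was the highest of the 6, with an edgeR adjusted p of 0.564; the unadjusted 95% interval of the fold ran from 0.912 to 1.72. Without control replicate 1 it was 0.50, and with scaling by total counts 0.10, where the median of all genes was at -0.22.

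**Figure D4:**
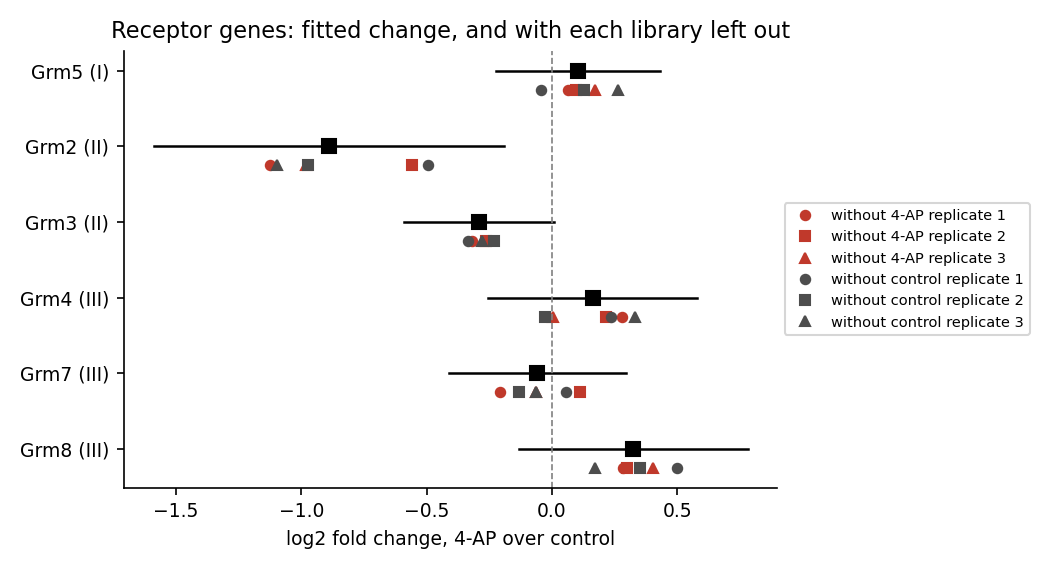
Log2 fold change of each receptor gene, 4-AP over control (black squares, with unadjusted 95% intervals), and the same value with each library left out in turn (coloured points under each line); the receptor group is in parentheses. Grm2, Grm3 and Grm8 keep their sign with each library left out, and Grm4, Grm5 and Grm7 lie near 0 and change sign without at least 1 library.

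By a rule on likeness of pattern, the 3 genes with the highest Pearson correlation of log2 CPM with each receptor over the 6 libraries were listed, from 4848 other genes with an average log2 CPM of at least 5. With 6 libraries and this many genes, high values are found for any pattern, and they are given as a description. Grm3 was most like Phf24 (r = 0.999), Pcm1 (0.995) and the sodium-activated potassium channel gene Kcnt2 (0.994). Grm2 was most like Elmsan1 (0.984), Midn (0.981) and the insulin receptor substrate gene Irs1 (0.975), and Grm5 was most like the MAP kinase kinase gene Map2k1 (0.992). The first-ranked genes were Mad1l1 for Grm4 (0.953), Ago3 for Grm7 (0.982) and Bhlhe22 for Grm8 (0.962). Each of the 18 listed genes had an adjusted p of at least 0.137 by edgeR's test.

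Genes that carry receptor signals were examined in 7 lists with 108 tested members of 116. Of these, 0 were higher and 5 lower at an adjusted p under 0.05, where 0.334% and 0.509% of all tested genes were; their median log2 fold change was -0.11, against -0.0076 for all tested genes. Groups did not overlap for 26 of the 108, or 24.1%, against 18.8% of all genes. A log2 fold change below 0 was found for 69 of the 108, and for 51% of all tested genes. The 5 genes were Dgkz, Dagla, Cyfip2, Adcy1 and Nat8l, and they belong to 4 of the 7 lists. Markers of cortical and hippocampal glutamatergic neurons (median log2 fold change -0.79, with 4 of 12 called) and pan-neuronal markers (median -0.28, with 0 of 10 called) had lower sums in the same libraries, and their part in these falls was not tested.

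**Figure D5:**
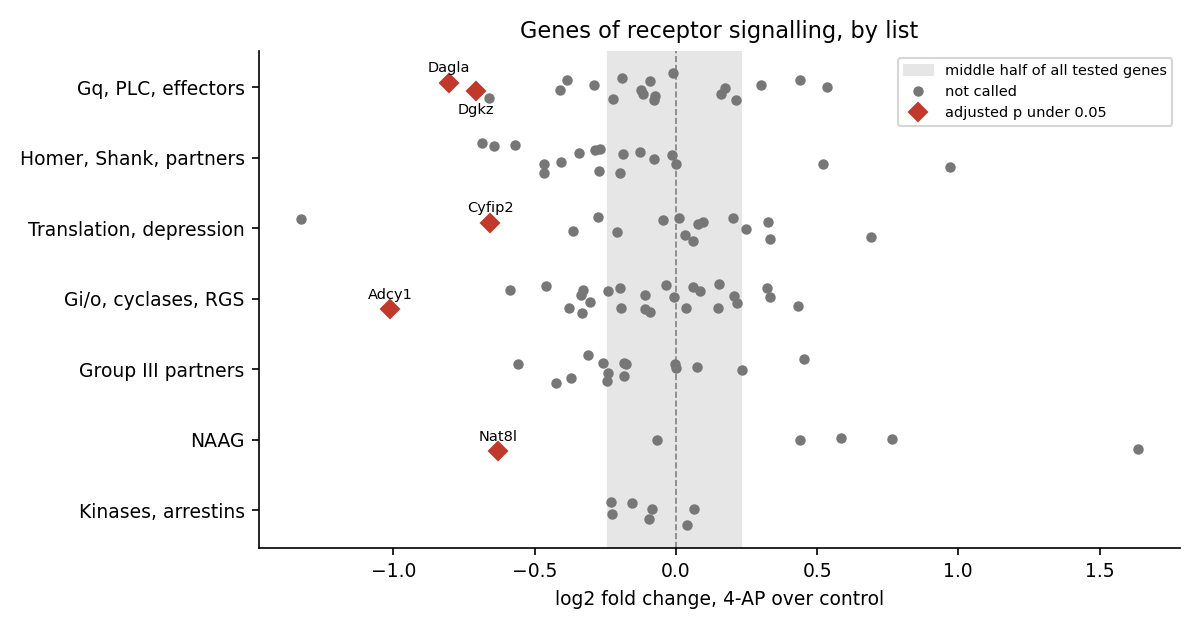
Log2 fold changes, 4-AP over control, of the tested genes of the 7 signalling lists (1 point per gene, vertical jitter only for display); red diamonds are genes at an adjusted p under 0.05, and the grey band spans the quartiles of all tested genes, -0.24 to 0.23. The 5 called genes all lie left of the band.

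Downstream of group I receptors, the list of Gq, phospholipase C and their effectors had 20 tested members, of which 2 fell, 0 rose and 14 lay below 0 (median -0.10). Dgkz, a kinase that removes the diacylglycerol made by phospholipase C, was at 297, 248 and 283 CPM in 4-AP replicates 1 to 3 and 419, 472 and 459 CPM in control replicates 1 to 3. The 2 groups were well apart, and its log2 fold change was -0.71 (SE 0.14, adjusted p = 0.0146 in edgeR). Dagla, which turns diacylglycerol into the endocannabinoid 2-arachidonoylglycerol, fell from 177 ± 37.1 to 102 ± 24.3 CPM (SD, n = 3 each; log2 -0.80, adjusted p = 0.0436, edgeR's test). The calcium-release channel gene Itpr1 was at -0.41 (adjusted p = 0.255), and among positive values the cation channel gene Trpc4 was at 0.44 (adjusted p = 0.477) and the diacylglycerol kinase gene Dgkb at 0.53 (adjusted p = 0.633).

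The Homer and Shank scaffold and other direct partners of group I receptors had 18 tested members, with 0 called in either direction by edgeR's test. At an unadjusted p under 0.05, 5 were lower and 1 higher, where 13.9% of all tested genes passed in either direction. Below 0 lay 15 of the 18 (median -0.27), against 51% of all tested genes. Shank2, a postsynaptic scaffold that binds Homer, was at 109, 101 and 113 CPM in 4-AP replicates 1 to 3 and 199, 133 and 171 CPM in control replicates 1 to 3, with no overlap (log2 -0.64, SE 0.17, adjusted p = 0.063). Homer2 was at -0.69 (adjusted p = 0.111) and Homer1 at -0.47 (adjusted p = 0.216). Siah1a, a ubiquitin ligase that binds group I receptors, was at 0.97 (19.4 against 9.88 CPM, adjusted p = 0.132) and Homer3 at 0.52 (adjusted p = 0.659).

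Translation and synaptic depression effectors of group I signalling had 16 tested members, of which 1 fell, 0 rose and 6 lay below 0 (median 0.047). Cyfip2, a partner of the FMRP translation regulator and of the actin-regulating WAVE complex, was at 374, 391 and 379 CPM in 4-AP replicates 1 to 3 and 678, 557 and 571 CPM in control replicates 1 to 3. Its groups did not overlap (log2 -0.66, SE 0.14, adjusted p = 0.021 in edgeR). Arc, which promotes removal of AMPA receptors from synapses, was at -1.33 (SE 0.28) and did not pass (adjusted p = 0.0777); control replicate 1 was at 650.3 CPM, the other controls at 323 and 308, and the 4-AP libraries between 160.1 and 184 CPM. The FMRP relative Fxr1 was at 0.69 (adjusted p = 0.104) and the phosphatase gene Ptprr at 0.32 (adjusted p = 0.567).

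For group II and III receptors, the list of Gi/o proteins, adenylyl cyclases and RGS proteins had 26 tested members, with 1 lower, 0 higher and 16 below 0 (median -0.10). Adcy1, the calcium-stimulated adenylyl cyclase that Gi/o inhibits, was at 851, 916 and 675 CPM in 4-AP replicates 1 to 3 and 2193, 1475 and 1258 CPM in control replicates 1 to 3. The lowest control was above the highest 4-AP library, and the log2 fold change was -1.01 (SE 0.19, adjusted p = 0.0142 in edgeR). Adcy9 was at -0.59 (adjusted p = 0.0618), the Gi alpha subunit gene Gnai2 at 0.43 (adjusted p = 0.281) and Gng2 at 0.33 (adjusted p = 0.501).

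The partners of group III receptors had 15 tested members of 17, with 0 called in either direction by edgeR's test. Below 0 lay 11 of the 15 (median -0.18), against 51% of all tested genes. At an unadjusted p under 0.05, 1 was higher and 3 were lower, where 13.9% of all tested genes passed in either direction. Rims1 and Ppp1ca had 0 counts in every library, which is not read as absence since both are known to be expressed in brain. Elfn2, an adhesion protein that binds group III receptors across the synapse, was at 326, 237 and 252 CPM in 4-AP replicates 1 to 3 and 388, 262 and 274 CPM in control replicates 1 to 3, and the groups overlapped. The release machinery genes Stx1a (-0.56, adjusted p = 0.103) and Unc13a (-0.42, adjusted p = 0.137) had the smallest p of the negative members. The scaffold gene Grip1 (0.45, adjusted p = 0.169) and Pick1, which binds the tail of the Grm7 receptor (0.23, adjusted p = 0.774), had the smallest p of the positive ones.

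N-acetylaspartylglutamate (NAAG) is a neuropeptide agonist of the Grm3 receptor, and 6 of 8 listed genes of its synthesis and breakdown were tested, with 1 lower and 0 higher. Nat8l, which makes the NAAG precursor N-acetylaspartate, was at 370.3, 370.5 and 363 CPM in 4-AP replicates 1 to 3 and 635, 498 and 578 CPM in control replicates 1 to 3. The groups were apart, at -0.63 on the log2 scale (SE 0.14, adjusted p = 0.0327 in edgeR). The NAAG synthase gene Rimklb was at 0.59 (37.1 against 24.9 CPM, adjusted p = 0.190), with no overlap between groups, and Folh1, which cleaves NAAG, at 1.64 from few reads (8.26 against 2.52 CPM, adjusted p = 0.147). The median of the 6 tested genes was 0.51, with 2 of them below 0. Besides Folh1, Rimkla (9.36 against 6.01 CPM), Aspa (8.95 against 6.94 CPM) and Naaladl2 (6.2 against 6.44 CPM) also had few reads, so this median rests largely on low counts. All 7 receptor kinases and arrestins were tested and 0 were called by edgeR's test, with 0 at an unadjusted p under 0.05 and a median of -0.095; Grk3 was at -0.23 (adjusted p = 0.563), Arrb1 at -0.094 (adjusted p = 0.830), Grk6 at 0.065 (adjusted p = 0.923) and Grk5 at 0.041 (adjusted p = 0.977).

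The 5 called genes depended on single libraries. Of the 6 fits that left out 1 library each, Adcy1 was called in 4, Dgkz in 3, Dagla in 2, and Cyfip2 and Nat8l in 1. Adcy1 lost its call without 4-AP replicate 1 or 4-AP replicate 3 (adjusted p up to 0.0924, edgeR), and its log2 fold change ranged from -1.17 to -0.74. Dgkz lost it without 4-AP replicate 3, control replicate 2 or control replicate 3 (highest adjusted p = 0.0877). Dagla kept it without 4-AP replicate 1 and without control replicate 2 only (adjusted p up to 0.198 in the other 4 fits), and also lost it with 2 other scalings, limma-voom, no robust fit or without abundant loci. Cyfip2 was called only without 4-AP replicate 2 among these 6 fits, and Nat8l only without control replicate 2; both also lost their call with no robust fit. All 5 genes were negative in each of these fits.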

How the data were processed

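Gene-level read counts of 6 RNase R-treated mouse brain libraries, 3 per group, were analysed. Whole-number counts were deposited by the authors, 1 table per sample; the submitters' processing notes name STAR 2.5.3a, featureCounts and mm10. Annotation, strand and multi-mapping settings are not given in the sources. Identifiers were matched to GENCODE M21 (54809 of 55604), which also gave exon lengths.

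In edgeR 4.0.16 (R 4.3.3) low genes were dropped with filterByExpr (at least 10 counts, total 15), libraries were scaled by TMM, and groups were compared (quasi-likelihood test, robust, group as the only term; Benjamini-Hochberg over 11388 genes, threshold 0.05). Standard errors come from the fold change and its F, and 95% intervals from the same fit. CPM is the count per 1e+06 of scaled library size; a count of 3 was worth 0.778 to 2.19 CPM. DESeq2 1.42.0 and limma-voom (limma 3.58.1) were alternatives, with other scalings and filters, the replicate number as a block, no robust fit and each library left out. Leaving out loci above 1% of a library was chosen after seeing the data. The procedure was tested on simulated data.

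The members, gene lists and naming rule (the receptors, called list members, and up to 2 list members per direction by p; a few others were added after their values were seen: Itpr1, Homer1, Elfn2, Slc1a2, Gm28111 and single marker genes) were chosen with earlier results of these data known. No 2 libraries agreed within sampling noise.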

Additional observations from a re-analysis of the deposited data

How the results depend on the processing

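Of the 6 receptor genes, 0 were called in the fit reported and 1, Grm2, under 3 alternatives: scaling by total counts (log2 -1.14, adjusted p = 0.036), no filter on low counts (-0.92, adjusted p = 0.00698) and the replicate block (-0.86, adjusted p = 0.049, all by edgeR's test). Over all 16 alternatives the adjusted p of Grm2 ran from 0.00698 to 0.482, and its log2 fold change from -1.14 to -0.50. With each library left out the number of receptor genes called was 0, and Grm2 ranged from -1.12 to -0.50, Grm3 from -0.34 to -0.23, Grm4 from -0.028 to 0.33, Grm5 from -0.042 to 0.27, Grm7 from -0.21 to 0.11 and Grm8 from 0.17 to 0.50. Scaling by total counts moved the median of all genes to -0.22 and reversed the sign of Grm5 (-0.092) and Grm4 (-0.029). The cause of these changes was not tested.

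The series' design text calls the tissue paired, and replicate numbers are shared between groups. No label says what a number stands for, and for that reason the fit reported has no pairing. Deviations of same-numbered samples correlated at -0.0022, 0.117 and 0.0248, and those of different-numbered samples at between -0.104 and 0.0657. These few values cannot decide if the samples were paired, and do not show that they were unpaired. With the replicate block 112 genes were higher and 153 lower, against 38 and 58 without it; besides Grm2 it changed no receptor's call. Other counts of higher and lower genes were 80 and 99 with DESeq2, 131 and 197 with no filter, and 25 and 30 with no robust fit; scaling by total counts gave 293 lower. With each library left out, between 16 and 105 genes were higher and between 10 and 54 lower. Grm2 and Grm8 rested on the fewest reads, at least 47 in each library.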
